A study of Homo sapiens with 4 samples.

Results

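The SR and hnRNP splicing factors were followed as a set of 33 genes, 13 SR genes and 20 hnRNP genes, among 34241 gene identifiers listed in the count tables. They were chosen by family membership and not by their measured values, though with earlier results of these data known. The SR genes are SRSF1 to SRSF11, TRA2A and TRA2B. The hnRNP genes are 18 with HNRNP symbols together with PTBP1 and PTBP3. The hnRNP genes are a selection, since HNRNPLL, HNRNPUL2 and PTBP2 among others are not in it. All 33 were listed in every table and all 33 passed the filter of 10 CPM (UMIs per 1000000 UMIs of a library) in the mean of the libraries, as 6506 genes did.

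SR proteins carry RNA recognition motifs and a domain rich in arginine and serine, bind exonic enhancers and recruit the spliceosome to nearby splice sites. hnRNP proteins coat nascent transcripts, and many of them repress the use of splice sites that SR proteins favour, so that the balance between the families is a classical determinant of alternative splicing. Many genes of both families regulate their own transcripts through exons that lead to nonsense-mediated decay, and 3′ counts of UMIs do not tell such transcripts from coding ones.

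The cells were A375, an established human melanoma line with the *BRAF* V600E mutation, measured by droplet single-cell RNA sequencing. S was the untreated culture, RV was made resistant to the BRAF inhibitor vemurafenib, RVC to vemurafenib with the MEK inhibitor cobimetinib, and RVT to vemurafenib with the MEK inhibitor trametinib. The resistant cultures had grown under drug for 10 to 14 days and were without it for the last 24 h before capture. Each condition was 1 library, so no difference between conditions was tested. Cells of 1 library are not replicates, and all intervals are exact 95% intervals that cover counting error only.

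The libraries held 25390117 to 58519152 UMIs (unique molecular identifiers, which tag single transcript molecules) in 4177 to 8446 filtered cells. Levels are given as CPM, the UMIs of a gene per 1000000 UMIs of its library, and are not divided by transcript length, because the assay counts transcript ends. The tables of S and RV list 703 identifiers that those of RVC and RVT lack, and the latter list 547 others, so RVC and RVT differ from S and RV by annotation as well as by drug, and the contributions cannot be told apart. In RVC and RVT, but not in RV, the log2 ratio over S was lower for genes whose transcripts end in GC-rich sequence. Across the 6506 genes its Spearman correlation with GC content in the final 500 bases was 0.0085 for RV over S, -0.35 for RVC over S, -0.41 for RVT over S and -0.17 for RVT over RVC. Genes are not independent replicates, and these correlations describe the libraries. The 12 melanoma and pigment cell markers summed to 2836 CPM in S and 3252 in RV, against 739 in RVC and 649.8 in RVT. The sums do not show which genes carry them. Of the 12, 6 passed the filter of 10 CPM, and all 6 lay below S in RVC. In RV 4 of the 6 lay above S and 2 below it, with log2 ratios from -2.24 to 1.33. In RVT 4 of the 6 lay below S and 2 above it, the highest at a log2 ratio of 2.10. TYR was at 0 in every library. The pigment cell gene SOX10 had 86.5 CPM in S, 39.9 in RV, 19.7 in RVT and was at 0 in RVC, where S100B was at 0 too. The 6 fibroblast markers summed to 2.58 CPM in S and 2.19 in RV, against 167 in RVC and 43.3 in RVT. None was at 0 in RVC, but only 2 of the 6 passed the filter of 10 CPM. The log2 ratios of these 2 in RVC over S were 7.78 and 11.2, and the sum does not show a rise of all 6. The 7 leukocyte markers stayed between 0.512 and 2.67 CPM in sum and the 7 epithelial and endothelial markers between 1.34 and 12.0. Mitochondrial genes held 3.19% of UMIs in S and 3.09% in RV, against 3.65% in RVC and 5.89% in RVT. A list of 2 nuclear RNAs summed to 12250 CPM in S and 9742 in RV, against 26500 in RVC and 27505 in RVT. Whether the RVC library holds A375 cells throughout was not tested, nor was the part of these differences in the values below.

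Transcripts of the 33 genes together made up 4878 CPM in S and 4728 in RV, against 5167 in RVC and 4494 in RVT. The SR genes summed to 1224 CPM in S and 1208 in RV, against 1642 in RVC and 1124 in RVT, and the hnRNP genes to 3654, 3519.9, 3525 and 3370.2 CPM in the same order. SR transcripts were thus 25.1% of the UMIs of both families in S (24.9 to 25.3) and 25.5% in RV (25.4 to 25.7), against 31.8% in RVC (31.6 to 32.0) and 25.005% in RVT (24.8 to 25.3), so that RVC alone lay apart. Its SR sum was carried by SRSF3 and SRSF7, a pair picked after the values were seen, which together had 483 CPM in S and 503 in RV, against 910.5 in RVC and 311 in RVT. The other 11 SR genes summed to 741 CPM in S and 705 in RV, against 732 in RVC and 813 in RVT. On the hnRNP side, HNRNPA1 alone held 42.8% of the hnRNP UMIs in S and 39.8% in RV, against 22.4% in RVC and 35.5% in RVT. Without it the hnRNP sum was 2091 CPM in S and 2120.3 in RV, against 2734 in RVC and 2175 in RVT, and the SR share became 36.9%, 36.3%, 37.5% and 34.1%, where RVC lay close to S.

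**Figure D1:**
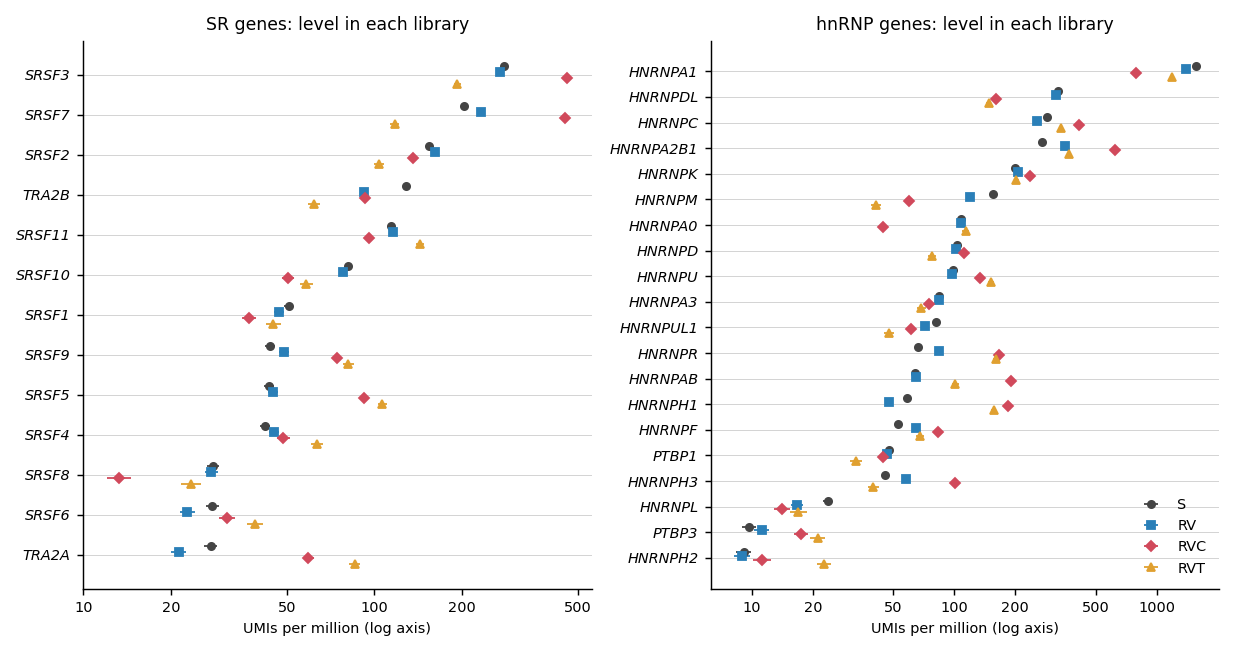
Level of each SR gene (left) and hnRNP gene (right) in UMIs per 1000000 UMIs of the library (CPM) on a log axis, 1 marker per library, with exact 95% Poisson intervals for counting error. Markers of S and RV lie close together for most genes, whereas SRSF7 ranges from 118 CPM in RVT to 453 in RVC and HNRNPM from 41.0 in RVT to 155 in S.

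Between S and RV the levels of the families were close, as were those of most genes. None of the 13 SR genes and none of the 20 hnRNP genes differed 2-fold in either direction, where 1.91% of all genes were at least 2-fold higher and 1.25% at least 2-fold lower. At such small shares a count of 0 does not set the families apart. The median log2 ratio was -0.022 for the SR genes and -0.017 for the hnRNP genes, beside 0.021 for all genes. Centred on GC content, which subtracts the median of genes of like GC content, the count stayed at 0 in both families, with 1.84% and 1.35% of all genes past 2-fold. TRA2B and TRA2A, paralogous activators that bind purine-rich enhancers, had the lowest SR ratios of RV over S, at -0.48 (-0.53 to -0.43) and -0.37 (-0.48 to -0.26). SRSF7 and SRSF9 had the highest, at 0.19 (0.16 to 0.23) and 0.16 (0.077 to 0.24). Among hnRNP genes HNRNPL and HNRNPM were lowest, at -0.51 (-0.64 to -0.39) and -0.37 (-0.41 to -0.32), and HNRNPA2B1 and HNRNPH3 highest, at 0.38 (0.35 to 0.41) and 0.35 (0.27 to 0.43). Among all genes TRA2B and TRA2A lay at percentiles 5.78 and 9.48, and HNRNPL and HNRNPM at 5.01 and 9.61. SRSF7 and SRSF9 lay at percentiles 73.4 and 68.9, and HNRNPA2B1 and HNRNPH3 at 87.6 and 86.2.

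In RVC and RVT single SR genes lay on both sides of S. SRSF7, a shuttling SR protein with a zinc knuckle, stood at 203 CPM in S (199 to 207) and 232 in RV (228 to 236), against 453 in RVC (445 to 460.0) and 118 in RVT (114 to 122). It was the highest of the 4 libraries in RVC and the lowest in RVT, and its log2 ratio over S was 1.16 (1.12 to 1.19) in RVC and -0.79 (-0.84 to -0.73) in RVT. SRSF3, the smallest SR protein, which also acts in mRNA export, was the most abundant SR transcript in every library, with 280.1 CPM in S (276 to 284) and 271 in RV (266 to 275), against 458 in RVC (451 to 465) and 193 in RVT (188 to 199). As for SRSF7, RVC was highest and RVT lowest, with log2 ratios over S of 0.71 (0.68 to 0.74) in RVC and -0.54 (-0.58 to -0.49) in RVT. Directly between the double-resistant libraries, SRSF7 was lower in RVT than in RVC by a log2 ratio of -1.94 (-2.00 to -1.89) and SRSF3 by -1.25 (-1.29 to -1.20). These ratios lay at percentiles 3.17 and 8.42 of all genes. SRSF7 (ENSG00000115875) lies at chr2:38743599-38751494, minus strand, and SRSF3 (ENSG00000112081) at chr6:36594353-36605600, plus strand, in GRCh38 with GENCODE 29.

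As SRSF3 and SRSF7 moved together between RVC and RVT, the 250 bases before their annotated starts are shown from RefSeq (GRCh38.p14), in lower case with short promoter motifs, on either strand, in capitals. The motifs searched on both strands were the CCAAT box (CCAAT), TATA box (TATAAA), GC box (GGGCGG), ETS site (CCGGAAG), E-box (CACGTG), NRF1 site (GCGCATGC), CRE site (TGACGTCA) and E2F site (TTTGGCGC), and SRSF7 is shown for the first of its listed starts.
SRSF3, chr6:36594112-36594361, plus strand: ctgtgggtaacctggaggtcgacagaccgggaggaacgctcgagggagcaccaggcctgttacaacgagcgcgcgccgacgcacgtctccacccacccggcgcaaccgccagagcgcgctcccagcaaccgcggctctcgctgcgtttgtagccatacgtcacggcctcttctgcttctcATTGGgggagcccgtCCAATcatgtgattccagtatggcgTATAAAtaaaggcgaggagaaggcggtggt
SRSF7, chr2:38751495-38751744, minus strand: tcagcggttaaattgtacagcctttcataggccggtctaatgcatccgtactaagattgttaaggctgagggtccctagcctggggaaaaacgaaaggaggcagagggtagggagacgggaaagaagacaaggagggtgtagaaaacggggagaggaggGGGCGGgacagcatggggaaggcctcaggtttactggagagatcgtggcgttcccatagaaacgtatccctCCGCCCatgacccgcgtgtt
The SRSF3 window holds 2 CCAAT boxes and a TATA box, and the SRSF7 window 2 GC boxes, so these windows share none of the motifs, though SRSF7 also has a TATA box before its other listed start. RefSeq gave 45 such windows for 30 of the 33 genes, with none used for SRSF2, TRA2A and HNRNPA1. The CCAAT box occurred in 3 of 14 SR and 17 of 31 hnRNP windows, against 32.0% of 35116 windows of all genes. For the GC box the counts were 5 of 14 and 22 of 31, against 42.6%, and for the E-box 0 of 14 and 7 of 31, against 6.345%. TATA boxes stood in 3 SR and 3 hnRNP windows, against 10.7%, ETS sites in 2 and 2, against 8.52%, and NRF1 sites in 2 and 1, against 2.63%. Neither family had a window with the CRE site or the E2F site, which 1.65% and 0.550% of all windows hold. Windows of 1 gene can overlap, and a match describes letters only.

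TRA2A and TRA2B lay on opposite sides of S in RVC and RVT. TRA2A was present at 27.4 CPM in S (26.1 to 28.8) and 21.3 in RV (20.02 to 22.5), against 59.3 in RVC (56.7 to 61.9) and 85.7 in RVT (82.1 to 89.3). Its level was higher in RVC and RVT than in S and RV, with log2 ratios over S of 1.11 (1.02 to 1.21) and 1.64 (1.55 to 1.74). TRA2B had 128 CPM in S (125 to 131) and 91.8 in RV (89.3 to 94.5), against 93.1 in RVC (89.8 to 96.4) and 62.0 in RVT (59.0 to 65.2), highest in S and lowest in RVT, at -1.05 (-1.12 to -0.97) over S. SRSF5, which binds exonic enhancers, had 43.5 CPM in S (41.9 to 45.2) and 44.8 in RV (43.0 to 46.6), against 92.3 in RVC (89.0 to 95.6) and 107 in RVT (103 to 111). Both double-resistant libraries lay above S for it, by 1.08 (1.01 to 1.16) and 1.29 (1.21 to 1.37) on the log2 scale.

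SRSF8, an intronless relative of SRSF2, was the lowest SR gene in RVC, with 27.9 CPM in S (26.6 to 29.3) and 27.5 in RV (26.1 to 28.9), against 13.3 in RVC (12.1 to 14.6) and 23.5 in RVT (21.6 to 25.4). SRSF10, an SR protein that represses splicing when dephosphorylated, had 81.3 CPM in S (79.0 to 83.7) and 78.0 in RV (75.6 to 80.4), against 50.7 in RVC (48.3 to 53.2) and 58.3 in RVT (55.4 to 61.4). SRSF9 stood at 43.9 CPM in S (42.2 to 45.6) and 48.9 in RV (47.1 to 50.9), against 74.7 in RVC (71.8 to 77.7) and 81.4 in RVT (77.9 to 85.0). Of these genes SRSF8 was lowest in RVC, SRSF10 was lower in both double-resistant libraries than in S, and SRSF9 was higher in both. SRSF11 had 114 CPM in S (111 to 116) and 116 in RV (113 to 119), against 95.9 in RVC (92.6 to 99.3) and 144 in RVT (139 to 149), with the lowest level in RVC and the highest in RVT, though RVT lay below S when centred on GC content, at -0.53. By CPM the remaining SR genes stayed within 2-fold of S in each library. SRSF1, the founding member of the family, had 50.9 CPM in S and 46.9 in RV, against 37.1 in RVC and 45.0 in RVT. SRSF2, a marker of nuclear speckles, had 155 CPM in S and 162 in RV, against 135 in RVC and 104 in RVT. SRSF4 ranged between 42.0 CPM in S and 63.6 in RVT, and SRSF6 between 22.8 in RV and 39.0 in RVT, where SRSF6 lay above S in RVC and RVT but below it when centred on GC content.

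Counted over the family, 3 of 13 SR genes (SRSF5, SRSF7 and TRA2A) were at least 2-fold higher in RVC than in S and 1 (SRSF8) at least 2-fold lower, where 22.5% of all genes were higher and 23.3% lower. In RVT over S 2 (SRSF5 and TRA2A) were higher and 1 (TRA2B) lower, against 28.7% and 24.3% of all genes. In RVT over RVC 0 were higher and 2 (SRSF3 and SRSF7) lower, against 15.1% and 11.9%. These shares lie near or below those of all genes. The median log2 ratio of the SR genes was 0.17 in RVC over S, -0.18 in RVT over S and 0.21 in RVT over RVC, beside 0.16, 0.21 and 0.16 for all genes. The first and the last of these medians changed sign under other scalings, as given below.

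Among hnRNP genes HNRNPM, which binds GU-rich sequence and regulates alternative exons, was the furthest below S. It had 155 CPM in S (151 to 158) and 119.9 in RV (117 to 123), against 59.6 in RVC (57.0 to 62.3) and 41.0 in RVT (38.5 to 43.5), RV lying below S and both double-resistant libraries below RV. Its log2 ratio over S was -1.37 (-1.45 to -1.30) in RVC and -1.92 (-2.01 to -1.82) in RVT, at percentiles 17.8 and 11.9 of all genes. HNRNPH1, which binds runs of G, was the furthest above S in both, with 58.3 CPM in S (56.3 to 60.3) and 47.6 in RV (45.7 to 49.5), against 184 in RVC (179 to 189) and 156 in RVT (151 to 161). Its ratios over S were 1.66 (1.60 to 1.72) and 1.42 (1.36 to 1.49). HNRNPAB, an A/B-type RNA-binding protein, had 64.2 CPM in S (62.2 to 66.3) and 64.5 in RV (62.3 to 66.7), against 191 in RVC (187 to 196) and 101 in RVT (97.0 to 105), and its ratio over S was 1.57 (1.52 to 1.63) in RVC and 0.65 (0.58 to 0.72) in RVT. HNRNPM (ENSG00000099783) lies at chr19:8444767-8489114, plus strand, HNRNPH1 (ENSG00000169045) at chr5:179614178-179634784, minus strand and HNRNPAB (ENSG00000197451) at chr5:178204507-178211163, plus strand.

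The windows before the RefSeq starts of HNRNPAB and HNRNPM, which have 1 listed start each and lay on opposite sides of S, are shown in the same way.
HNRNPAB, chr5:178204283-178204532, plus strand: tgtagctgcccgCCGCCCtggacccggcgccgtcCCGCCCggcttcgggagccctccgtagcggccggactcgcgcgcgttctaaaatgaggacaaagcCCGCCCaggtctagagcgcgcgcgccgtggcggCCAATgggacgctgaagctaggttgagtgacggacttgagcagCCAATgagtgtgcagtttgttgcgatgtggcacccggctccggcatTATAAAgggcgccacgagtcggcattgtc
HNRNPM, chr19:8444725-8444974, plus strand: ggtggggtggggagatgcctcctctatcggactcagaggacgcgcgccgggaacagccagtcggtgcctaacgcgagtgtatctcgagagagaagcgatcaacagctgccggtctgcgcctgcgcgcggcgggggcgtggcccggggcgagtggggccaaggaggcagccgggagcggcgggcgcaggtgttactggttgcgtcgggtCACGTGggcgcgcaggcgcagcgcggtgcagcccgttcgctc
The HNRNPAB window holds 3 GC boxes, 2 CCAAT boxes and a TATA box, and the HNRNPM window an E-box alone. Their GC contents were 66.0% and 71.6%, beside medians of 61.4% for SR windows, 66.0% for hnRNP windows and 58.0% for all windows.

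HNRNPA1, which antagonises SRSF1 in splice site choice, was the most abundant member in every library, at 1563 CPM in S (1553 to 1573) and 1399.6 in RV (1389 to 1409.8), against 791 in RVC (781 to 800.3) and 1195 in RVT (1181 to 1208). HNRNPA2B1, its paralog with roles in RNA transport, had 273 CPM in S (269 to 277) and 355 in RV (349 to 359.6), against 622 in RVC (614 to 631) and 369.7 in RVT (362 to 377). HNRNPA1 was lowest in RVC, where HNRNPA2B1 was highest. HNRNPA0, an A-type member, had 108 CPM in S (106 to 111) and 108 in RV (105 to 111), against 44.6 in RVC (42.4 to 46.9) and 114 in RVT (109.5 to 118). It was lowest in RVC, with a log2 ratio of -1.28 (-1.36 to -1.20) over S there, 0.070 (0.0056 to 0.13) in RVT (-0.36 when centred on GC content), and 1.35 (1.26 to 1.44) for RVT over RVC. HNRNPH3, a relative of HNRNPH1, was the reverse, with 45.5 CPM in S (43.8 to 47.2) and 57.9 in RV (55.9 to 60.0), against 101 in RVC (97.8 to 105) and 39.7 in RVT (37.2 to 42.2). RVC was the high library for it, and RVT over RVC stood at -1.35 (-1.45 to -1.25).

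HNRNPDL, a D-like protein that regulates its own transcript, had 325 CPM in S (320.1 to 329) and 318 in RV (313 to 323), against 160.2 in RVC (156 to 165) and 148 in RVT (143 to 152), and both double-resistant libraries lay at about the same lower level. HNRNPH2, the X-linked relative of HNRNPH1, was the least abundant hnRNP gene in S, with 9.07 CPM in S (8.32 to 9.88) and 8.94 in RV (8.15 to 9.79), against 11.2 in RVC (10.0 to 12.4) and 22.7 in RVT (20.9 to 24.6), and RVT stood above the rest. HNRNPL, which binds CA repeats, had 23.7 CPM in S (22.5 to 24.97) and 16.6 in RV (15.5 to 17.7), against 14.0 in RVC (12.8 to 15.3) and 16.9 in RVT (15.3 to 18.6), below S in each resistant library. HNRNPR was at 66.4 CPM in S and 83.5 in RV, against 167 in RVC and 161 in RVT, and HNRNPU, a nuclear scaffold protein, at 99.0 CPM in S and 97.8 in RV, against 133 in RVC and 151 in RVT. PTBP3 had 9.65 CPM in S and 11.1 in RV, against 17.5 in RVC and 21.1 in RVT, and PTBP1, the polypyrimidine tract-binding repressor, 47.6 CPM in S and 46.2 in RV, against 44.2 in RVC and 32.7 in RVT. HNRNPC, which binds U tracts, ranged from 258 CPM in RV to 416 in RVC, and HNRNPF, which binds runs of G, from 52.8 in S to 83.4 in RVC. For HNRNPUL1 the range was 47.3 CPM in RVT to 81.4 in S, and for HNRNPD, which binds AU-rich elements, 77.7 in RVT to 111 in RVC. HNRNPK, a KH-domain protein that binds poly(C), ranged from 199.5 CPM in S to 237 in RVC, and HNRNPA3 from 68.7 in RVT to 84.3 in S. Centred on GC content, HNRNPA2B1, HNRNPC, HNRNPF and HNRNPK in RVT and HNRNPD, HNRNPH2 and HNRNPK in RVC went from above S to below it.

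In RVC over S 5 of 20 hnRNP genes (HNRNPA2B1, HNRNPAB, HNRNPH1, HNRNPH3 and HNRNPR) were at least 2-fold higher and 3 (HNRNPA0, HNRNPDL and HNRNPM) at least 2-fold lower. In RVT over S 4 (HNRNPH1, HNRNPH2, HNRNPR and PTBP3) were higher and 2 (HNRNPDL and HNRNPM) lower, and in RVT over RVC 2 (HNRNPA0 and HNRNPH2) were higher and 1 (HNRNPH3) lower. HNRNPDL in RVC over S and HNRNPH2 in RVT over RVC, at -1.02 and 1.02, lay at the edge of the 2-fold limit. HNRNPDL was within it with all barcodes and without doublet removal, both at -0.99, with equal weight for every cell, at -0.97, and in the lower 50% of cells by the share of UMIs in G2/M (cell division) genes, at -0.94. HNRNPH2 was within it with all barcodes, at 0.999, with at least 1000 genes per cell, at 0.995, in the lower 50% of cells, at 0.997, and with library sizes scaled by TMM (trimmed mean of M values), at 0.72. HNRNPA1 in RVC over S, at -0.98, passed it with equal weight for every cell, at -1.04, and also with TMM scaling, with library sizes without ribosomal and mitochondrial genes and in the lower 50% of cells. The shares of all genes are those given for the SR genes, and the hnRNP shares lie near or below them. The median log2 ratio of the hnRNP genes was 0.27 in RVC over S, 0.045 in RVT over S and -0.23 in RVT over RVC. The first and second of these turned below 0 when centred on GC content, and the second also with at least 1000 genes per cell, at -0.010. The RVC and RVT comparisons share the S library, so their agreement for a gene is no separate evidence.

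The ends of most of these transcripts are poor in GC. Over the final 500 bases the median GC content was 34.8% for the SR genes and 35.7% for the hnRNP genes, and the highest values were 60.0% for PTBP1, 47.0% for SRSF10 and 44.8% for SRSF3. These values are of the longest transcript, which for PTBP1, SRSF10, HNRNPH3 and others is not a coding one. The longest coding transcript had 36.0% for SRSF10, and for HNRNPH3 32.8% in place of 40.0%. As genes with AT-rich ends were in general higher in RVC and RVT, ratios were also centred on genes of like GC content. Then 0 of 13 SR genes were at least 2-fold higher in RVC over S and 1 lower, against 16.6% and 22.5% of all genes. In RVT over S 0 were higher and 3 (SRSF2, SRSF7 and TRA2B) lower, against 21.6% and 23.6%, and in RVT over RVC 0 were higher and 2 lower, against 10.4% and 14.2%. Of the 20 hnRNP genes, 3 (HNRNPAB, HNRNPH1 and PTBP1) were higher and 5 (HNRNPA0, HNRNPA1, HNRNPDL, HNRNPL and HNRNPM) lower in RVC over S. In RVT over S 1 (PTBP1) was higher and 6 (HNRNPA3, HNRNPD, HNRNPDL, HNRNPL, HNRNPM and HNRNPUL1) lower, and in RVT over RVC 1 (HNRNPA0) was higher and 2 (HNRNPAB and HNRNPH3) lower. The median of the SR genes became -0.27, -0.64 and -0.056 in these contrasts, and that of the hnRNP genes -0.076, -0.37 and -0.53. Every median in these contrasts was then below 0. For TRA2A the ratio over S went from 1.11 to 0.53 in RVC and from 1.64 to 0.77 in RVT. PTBP1 went the other way, from -0.11 to 1.30 in RVC and from -0.54 to 1.21 in RVT. This rests on the transcript used, an intron-retaining one, since with 52.0% GC for the longest coding transcript the values were 0.042 and -0.37, and PTBP1 was then past 2-fold in neither. Centred by coding transcripts, SRSF10 was at least 2-fold lower in RVC over S too. HNRNPH3 then stood at 0.55 in RVC over S, against 0.94 by longest transcripts. HNRNPL was past 2-fold in RVC and RVT over S neither by coding transcripts nor by the GC content of whole transcripts. By whole transcripts HNRNPA3 and HNRNPUL1 were within 2-fold in RVT over S too.

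**Figure D2:**
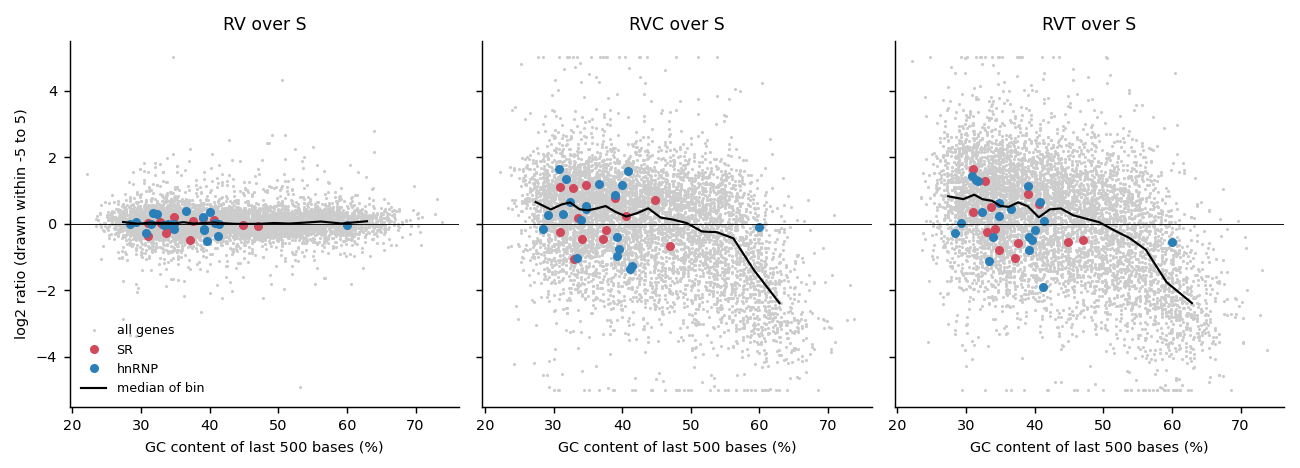
Log2 ratio of each of 6506 genes (grey, drawn within -5 to 5) against GC content in the final 500 bases of its transcript, for RV, RVC and RVT over S, with SR genes in red, hnRNP genes in blue and the median of each of 20 bins as a line. The line is flat for RV and falls with GC content for RVC and RVT, and most members lie in its left part, with PTBP1, at 60.0%, furthest to the right.

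**Figure D3:**
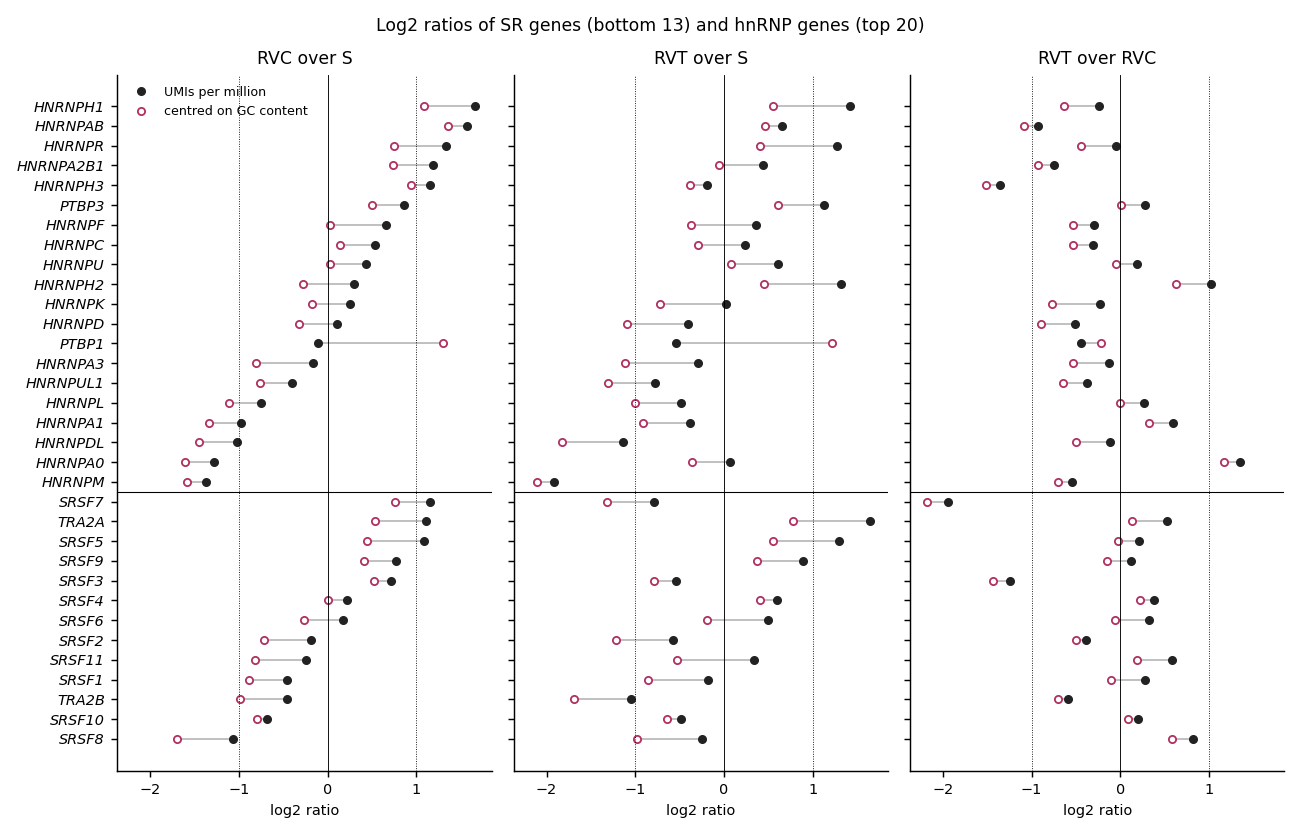
Log2 ratios of the 33 genes in RVC over S, RVT over S and RVT over RVC, as CPM ratios (filled) and centred on GC content (open), with dotted lines at 2-fold. Centring moves every gene to the left in RVC and RVT over S except PTBP1, and SRSF7, SRSF3 and HNRNPH3 stay below the lower line in RVT over RVC with HNRNPA0 above the upper one.

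Scaling by TMM factors, which assume that most genes do not differ, shifted the median log2 ratio of all genes by -0.21 in RVC over S, -0.52 in RVT over S and -0.30 in RVT over RVC. With these factors 0 SR genes were higher and 1 lower in RVC over S, against 16.2% and 26.9% of all genes, and 3 hnRNP genes higher and 4 lower. In RVT over S 1 SR gene (TRA2A) was higher and 4 (SRSF2, SRSF3, SRSF7 and TRA2B) lower, and 0 hnRNP genes higher and 5 lower, against 16.6% and 33.6%. In RVT over RVC 0 SR genes were higher and 2 lower, and 1 hnRNP gene higher and 3 lower, against 8.27% and 18.1%. Library sizes without ribosomal and mitochondrial genes shifted that median by -0.14 in RVC over S and 0.11 in RVT over RVC. With them 1 SR gene was higher and 1 lower in RVC over S, and 5 hnRNP genes higher and 4 lower, against 18.3% and 25.8%. Under all 11 alternatives that kept every member, SRSF8, HNRNPA0 and HNRNPM remained at least 2-fold lower and HNRNPAB and HNRNPH1 at least 2-fold higher in RVC than in S. These 2 scalings lower every ratio of RVC over S, so they could not end a lower call there. For SRSF8, at -1.07, the counting interval of -1.22 to -0.91 crossed the limit. In the highest 10% of cells by G2/M genes, not among these alternatives, SRSF8 stood at -0.40. HNRNPM remained at least 2-fold lower in RVT than in S under all 11 alternatives. TMM scaling and library sizes without ribosomal and mitochondrial genes lower every ratio of RVT over S too, so they could not end this call. Between RVT and RVC the members that stayed past 2-fold under each alternative were SRSF3, SRSF7 and HNRNPH3, lower in RVT, and HNRNPA0, higher in RVT. TMM scaling lowers every ratio of RVT over RVC, so it could not end a lower call there. Centring on GC content lowered SRSF3, SRSF7 and HNRNPH3 further. The share of all genes past 2-fold under every alternative was not counted.

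Ratios of related genes within a library do not depend on its size. TRA2A had 0.214 UMIs for each UMI of TRA2B in S (0.203 to 0.226) and 0.231 in RV (0.217 to 0.247), but 0.637 in RVC (0.601 to 0.674) and 1.38 in RVT (1.29 to 1.47), where the order of the pair was reversed. PTBP3 had 0.203 for each UMI of PTBP1 in S and 0.241 in RV, against 0.395 in RVC and 0.648 in RVT. HNRNPA2B1 to HNRNPA1 was 0.175, 0.253, 0.787 and 0.309 in S, RV, RVC and RVT, highest in RVC. HNRNPDL to HNRNPD was 3.15 and 3.11 in S and RV but 1.44 in RVC and 1.90 in RVT. HNRNPH1 to HNRNPF was 1.10 in S and 0.738 in RV, against 2.21 in RVC and 2.30 in RVT. SRSF3 to SRSF7 stayed between 1.01 in RVC and 1.64 in RVT. A difference in GC content or annotation between the genes of a pair would alter such a ratio too, and the genes of the TRA2 pair have 31.0% and 37.2% GC in their last 500 bases. For PTBP3 and PTBP1 the gap was 39.0% against 60.0%, and centring turned the order of the pair's ratios over S round, to 0.50 and 1.30 in RVC and 0.61 and 1.21 in RVT. This order too rests on the intron-retaining PTBP1 transcript, since centred by coding transcripts PTBP3 stood at 0.45 in RVC and 0.61 in RVT, above the PTBP1 values of 0.042 and -0.37.

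**Figure D4:**
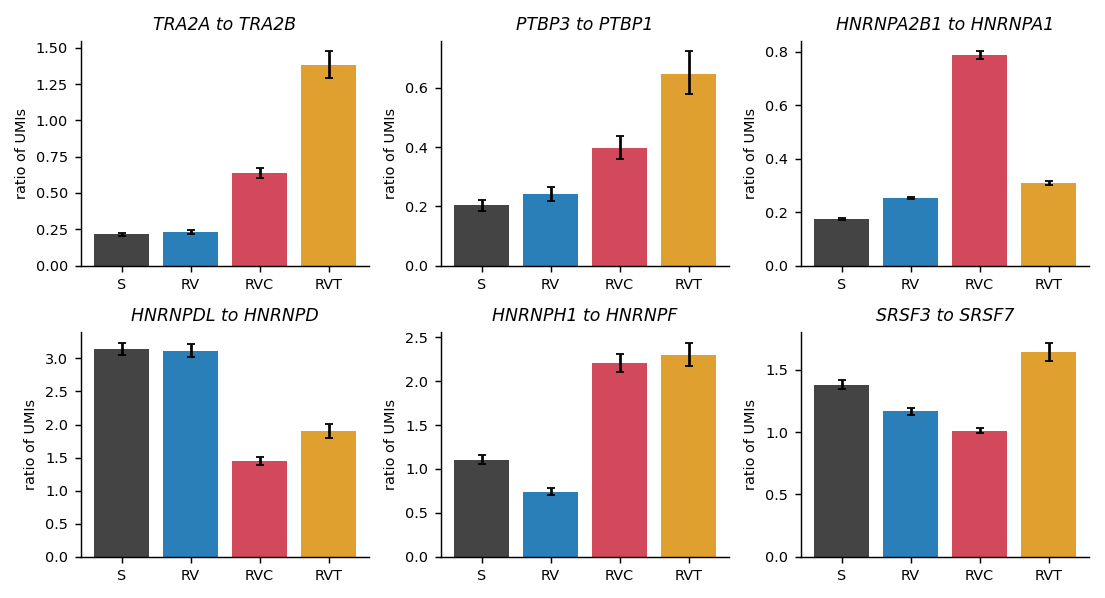
UMIs of one gene for each UMI of its partner in the 4 libraries, for 6 pairs, as bars from 0 with exact 95% intervals for counting error. TRA2A to TRA2B goes from 0.214 in S to 1.38 in RVT, whereas HNRNPA2B1 to HNRNPA1 is highest in RVC at 0.787.

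The level of a gene in the sum was compared with how many cells held it. Thinned to 1500 UMIs per cell, which left out 397 RVC and 844 RVT cells and none of S or RV, the median cell had 7 UMIs of the 33 genes in S and 7 in RV, against 8 in RVC and 6 in RVT. SRSF7 was found in 24.4% of thinned cells in S and 27.7% in RV, but in 47.0% in RVC and 15.1% in RVT, against 72.1%, 79.5%, 74.6% and 26.6% before thinning. HNRNPM was found in 21.2%, 17.5%, 8.64% and 6.18% of thinned cells, and TRA2A in 4.01%, 3.18%, 8.74% and 12.0%. HNRNPA1 was found in 89.8%, 86.9%, 67.8% and 81.8%. These shares kept the order of the CPM values in each case. Every cell of a culture is taken to use these genes, so a background share from free RNA was not measurable.

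Within each library most of the splicing factors were higher in cells rich in transcripts of G2/M genes. Cells were ranked by the share of their UMIs on 54 G2/M genes, none of them an SR or hnRNP gene, and the highest 10% were set against the lower 50%. This score is a range and not a cell type, and 208 to 593 cells of a library lie within 10% of the upper limit and 191 to 1011 within 10% of the lower one. The median log2 ratio of the SR genes was 0.38 in S and 0.67 in RV, against 0.36 in RVC and 0.37 in RVT. For the hnRNP genes it was 0.41, 0.69, 0.31 and 0.50, beside 0.075, 0.18, 0.090 and 0.13 for all genes. In all 4 libraries 10 of 13 SR genes and 18 of 20 hnRNP genes had a ratio above 0, as 31.4% of all genes did. SRSF7 had 0.84 in S and 1.08 in RV, against 0.41 in RVC and 1.22 in RVT, and SRSF3 0.60 in S and 0.90 in RV, against 0.52 in RVC and 0.93 in RVT. HNRNPA2B1 had 0.67 in S and 1.00 in RV, against 0.60 in RVC and 1.01 in RVT. The exceptions were SRSF5, SRSF8, TRA2A, HNRNPH2 and PTBP3, with -0.56 in S and -0.15 in RV, against 0.37 in RVC and -0.055 in RVT for SRSF8. HNRNPA1, the most abundant member, had 0.12 in S and 0.13 in RV, against 0.28 in RVC and 0.067 in RVT. In RV and RVT this was below the median of all genes. Ranked by 43 G1/S genes instead, 11 of 13 SR genes and 16 of 20 hnRNP genes had a ratio above 0 in all 4 libraries, against 33.4% of all genes. Median UMIs per cell in the high and low cells were 10044 and 8238 in S, 13352 and 10699.5 in RV, 3869 and 3840.5 in RVC and 2764.5 and 2938 in RVT.

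G2/M transcripts themselves differed between libraries, with 1728 CPM in S and 2173 in RV, against 4541 in RVC and 1419 in RVT, in the same order as SRSF7 in RVC and RVT. G1/S transcripts were also highest in RVC and lowest in RVT, with 831 CPM in S and 1057 in RV, against 1157 and 391. Cells of the lower 50% by G2/M share were also compared on their own, an alternative added after the data were seen. There SRSF7 stood at 1.52 in RVC over S and -2.04 in RVT over RVC, and SRSF3 at 0.80 and -1.27. For HNRNPH3 the values were 1.04 and -1.29. In the highest 10% of cells, RVT over RVC was smaller, at -1.23 for SRSF7, -0.86 for SRSF3 and -0.77 for HNRNPH3, and in RVT over S SRSF7 stood at -0.13 and SRSF3 at -0.14. HNRNPH3 lay above S in these cells of RVT, at 0.41, against -0.20 over all cells. The lower 50% were taken within each library and reached a G2/M share of 0.406% of UMIs in RVC, against 0.0704% in S, 0.117% in RV and 0.0659% in RVT, so the libraries still differed in G2/M transcripts, and the part of these in the values was not tested.

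**Figure D5:**
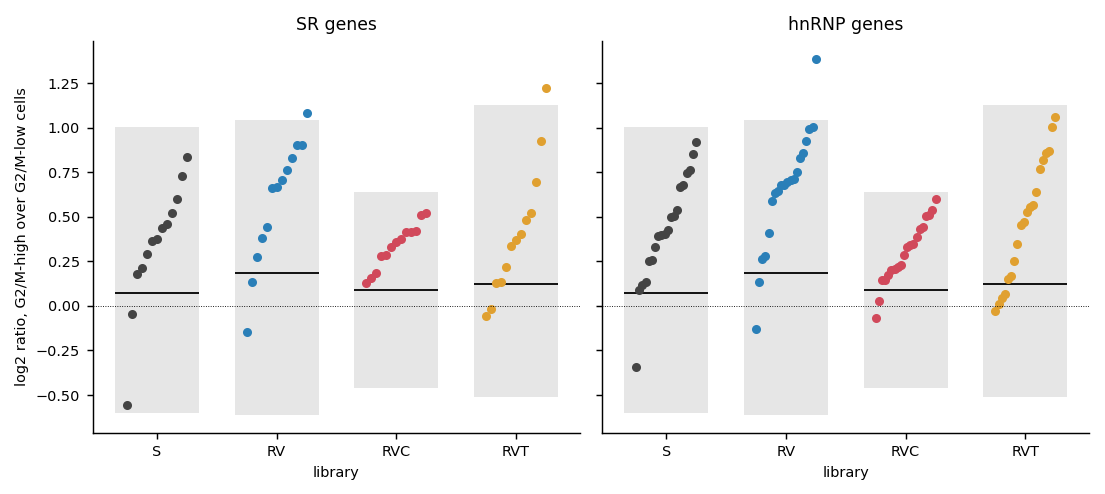
Log2 ratio of each SR gene (left) and hnRNP gene (right) in the 10% of cells with the highest G2/M share over the lower 50%, in each library, with the central 90% of all genes in grey and their median as a line. Most points lie above the line of their library, SR medians being 0.36 to 0.67 and hnRNP medians 0.31 to 0.69.

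The other genes of the splicing machinery were counted in the same way, and the shares of all genes at least 2-fold higher and lower are again 22.5% and 23.3% in RVC over S and 28.7% and 24.3% in RVT over S. Of 15 core snRNP genes, 4 were at least 2-fold higher and 4 lower in RVC over S, and 3 higher and 6 lower in RVT over S. Among 16 SR-related proteins 5 were higher and 1 lower in RVC, and 1 higher and 2 lower in RVT, which became 1 and 1 in RVC and 0 and 1 in RVT when centred on GC content. Of 17 other splicing regulators with at least 10 CPM, 5 were higher and 1 lower in RVC, and 9 higher and 2 lower in RVT, which became 2 and 3 in RVC and 4 and 2 in RVT when centred. Of 7 kinases and import factors of SR proteins, 0 were higher and 2 lower in RVC, and 2 higher and 1 lower in RVT, which became 0 and 3 in RVT when centred. Of 12 genes of the branch point and 3′ splice site, 3 were higher and 2 lower in RVC, and 1 higher and 3 lower in RVT. Of 11 exon junction and decay genes, 1 was higher and 2 lower in RVC, and 2 higher and 2 lower in RVT, and of 8 further genes of the families, 2 and 2 in RVC and 1 and 2 in RVT. In the lists for which no centred count is given, centring moved each count by at most 1. CLK3, a kinase of SR proteins, had 21.7 CPM in S and 25.2 in RV, against 6.82 in RVC and 8.47 in RVT. RALY, an hnRNP-like gene, had 106 CPM in S and 105 in RV, against 17.3 in RVC and 17.8 in RVT, and PCBP1, which binds poly(C), had 101, 134, 439 and 351. Also past 2-fold were SNRPA, a protein of the U1 snRNP, at 128, 105, 13.6 and 7.13 CPM in S, RV, RVC and RVT, and MBNL1, at 22.5, 27.8, 81.2 and 99.7. SF3A2, a subunit of the U2 snRNP, had 32.2, 33.9, 0.394 and 0.158 CPM, close to 0 in RVC and RVT. Among the other genes at the ends of their lists, PRPF8 (19.96 CPM in S to 63.7 in RVC), SF3B6 (271 in S to 778 in RVC), SF3B1 (23.6 in RV to 81.0 in RVC), BCLAF1 (26.0 in RV to 82.3 in RVC), DYRK1A (2.19 in RV to 11.9 in RVT), TNPO3 (13.7 in RV to 31.9 in RVT) and RBM8A (258 in RV to 616 in RVC) were highest in RVC or RVT. The cold-inducible RNA-binding gene CIRBP (253 CPM in S to 63.3 in RVC), LUC7L (24.4 in S to 8.15 in RVT) and UPF1, the helicase of nonsense-mediated decay (19.8 in S to 8.04 in RVC), were lowest there.

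Counting can blur some of these genes. GENCODE 29 holds 74 pseudogenes named after HNRNPA1, 16 after HNRNPA3 and 9 after HNRNPC, none of which is listed in the tables, and how the counting treated reads shared with them is not given in the sources used here, so these levels are uncertain. HNRNPA2B1 overlaps CBX3 and HNRNPU overlaps COX20 on the opposite strand. SRSF1, HNRNPH2 and HNRNPL each overlap a listed gene on the same strand, and these overlapping genes had at most 0.591 CPM. Such low counts do not show that the members kept all their reads, because the treatment of shared reads is not known. The gene that overlaps HNRNPH2 is RPL36A-HNRNPH2, and the part of this overlap in the levels and ratios of HNRNPH2 was not tested.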

How the data were processed

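The values analysed are UMI counts, whole numbers per gene and barcode, which the authors deposited without normalization after processing 10x Chromium v2 libraries with Cell Ranger. The submitters' processing notes name bcl2fastq 2.20.0.422 and GRCh38, and the annotation release and the Cell Ranger version are not given in the sources used here. Barcodes with at least 500 genes and at most 20% mitochondrial UMIs were kept. Those that scrublet (in scanpy 1.11.5) scored highest as doublets were dropped, 0.8% for each 1000 barcodes. This left 6334 S, 4177 RV, 7628 RVC and 8446 RVT cells, with 58519152, 52461572, 32974745 and 25390117 UMIs and medians of 8799.5, 11553, 3958 and 2864 UMIs per cell. Pairs of libraries shared 38 to 149 barcodes before filtering, where random draws of the kit's barcodes give 39.3 to 131.

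UMIs were summed per gene and library, with exact Poisson intervals for CPM and Clopper-Pearson intervals for shares and ratios, at 95%. In ratios a sum under 3 UMIs was set to 3. Genes listed in every table whose mean CPM over the libraries was 10 or more were compared, and a ratio past 2-fold was counted. For GC content, log2 ratios were centred on the median of 20 bins by the last 500 bases of each gene's longest GENCODE 29 transcript. Python 3.11.15, numpy 2.4.6, pandas 2.3.3, scipy 1.17.1, matplotlib 3.10.9, R 4.3.3 and edgeR 4.0.16 (TMM factors 0.875, 0.902, 1.01 and 1.25 for S, RV, RVC and RVT) were used.

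The members and all gene lists were chosen with earlier results of these data known. Every member was named, and those described with intervals were, per family and contrast, the 2 highest and 2 lowest log2 ratios and the most abundant gene of S. Genes of other lists were named for the highest or lowest ratio of their list in RVC or RVT over S, and a gene that this rule names is not reported here. Ratios and centring were tested on simulated sums of 6506 genes, 200 of them changed 4-fold. Among changed genes with at least 100 UMIs, 100% came within 0.5 of the set log2 change in RV, RVC and RVT over S, and 99.0% in RVT over RVC, which was nearly certain for Poisson counts. All simulated contrasts used the levels of S, and far fewer genes were changed than lay past 2-fold in RVC and RVT. Their GC trend was stronger than in the data, with Spearman correlations of -0.932 to -0.921. They therefore do not show how well centring does on these libraries. Alternatives were other filters on cells, keeping doublets, TMM factors, totals that leave out ribosomal and mitochondrial genes, equally weighted cells, GC centring, members with at least 50 CPM and 0.5 added UMIs.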

Additional observations from a re-analysis of the deposited data

Results flagged for a closer look

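Members of the SR and hnRNP families for which RVC and RVT lay on opposite sides of S were singled out, since the same contrast over S went opposite ways in the 2 double-resistant cultures. How many of all genes did so was not counted, so the list does not set these members apart from other genes. The differences were not tested, as each condition is 1 library. SRSF7 was above S in RVC and below it in RVT, and its log2 ratio of RVT over RVC was -1.94. SRSF3 went the same way, at -1.25, and so did HNRNPH3, at -1.35. In the highest 10% of cells by G2/M genes, however, HNRNPH3 lay above S both in RVC, at 1.17, and in RVT, at 0.41. HNRNPA0 went the opposite way, at 1.35, but its level in RVT was nearly that of S, and centred on GC content it lay below S in RVT too. SRSF11 lay below S in RVC and above it in RVT, at 0.59, and HNRNPD above S in RVC and below it in RVT, at -0.52, and centred on GC content both lay below S in RVC and in RVT. The G2/M genes were at 4541 CPM in RVC and 1419 in RVT, and the G1/S genes at 1157 and 391. The part of either in these differences was not tested. RVC and RVT share the annotation of the count tables.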

How the results depend on the processing

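No paired analysis was possible because each condition is 1 library. For the same reason there is no replicate to leave out. Over 1452 combinations of a member, a contrast and an alternative, 878 moved by less than the counting interval, 574 moved by more, and 0 ratios past 2-fold changed sign. Sign changes of smaller ratios are not in that count. They occurred, for example, for HNRNPK in RVT over S under 6 of 12 alternatives and for HNRNPD in RVC over S under 5 of 12. For the median log2 ratios, the cause of each shift was not tested.

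TMM scaling gave SR medians of -0.046 in RVC over S, -0.69 in RVT over S and -0.095 in RVT over RVC, and hnRNP medians of 0.062, -0.47 and -0.54. Library sizes without ribosomal and mitochondrial genes gave SR medians of 0.023 in RVC over S and 0.32 in RVT over RVC, and hnRNP medians of 0.13 and -0.12. Centring on GC content gave SR medians of -0.27, -0.64 and -0.056 in RVC over S, RVT over S and RVT over RVC, and hnRNP medians of -0.076, -0.37 and -0.53. The next 3 alternatives were chosen after seeing the data. With GC content of coding transcripts the SR medians were -0.31, -0.65 and -0.012 and the hnRNP medians -0.13, -0.37 and -0.55, and with GC content of whole transcripts they were -0.40, -0.85 and -0.039, and -0.074, -0.42 and -0.42. In the lower 50% of cells by G2/M genes the SR medians were -0.13 in RV over S and -0.028 in RVT over S, and the hnRNP medians -0.16 and 0.15. Members with at least 50 CPM gave SR medians of 0.26, -0.51 and -0.13 in RVC over S, RVT over S and RVT over RVC, and an hnRNP median of 0.34 in RVC over S. The SR median of RVC over S thus changed sign with TMM scaling and centring, the hnRNP median of RVC over S with centring, the SR median of RVT over RVC also with the 50 CPM minimum. The hnRNP median of RVT over S changed sign with TMM scaling and centring and also with at least 1000 genes per cell, at -0.010, and the SR median of RV over S with the 50 CPM minimum, at 0.034.

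Other cell filters, no doublet removal, equal weight for every cell and an added 0.5 UMIs left every median within the median counting interval of its genes, and SR shares moved only in RVT, to 25.4% with equal weight for every cell. Depth limits SRSF8, HNRNPH2, HNRNPL and PTBP3 most, with 368 to 596 UMIs in RVC and RVT.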
